A study of Homo sapiens with 2 samples.

Results

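The TRIM genes encode proteins with a tripartite motif, an N-terminal RING finger, B-box and coiled coil in a row, and were read here in the gastric cancer line MKN45 and in MKN45P, its highly metastatic derivative. Members were all genes of the deposited table whose symbol is TRIM followed by a number, read through probesets annotated to that symbol alone. This gave 64 genes and 872 probesets, out of 18923 genes and 286871 such probesets in all. A probeset is a small group of probes on the exon array, so a gene is read at several places, here at 1 to 40 with a median of 13. Both lines were grown in RPMI medium with serum, without a treatment being named, and each was measured on 1 array. MKN45P is labelled as a highly metastatic gastric cancer line and MKN45 as gastric cancer, and the labels name no clone or transgene. Nothing could therefore be tested against variation between cultures, and each spread below is that between the probesets of a gene within these arrays.

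The RING finger of a TRIM protein recruits an E2 enzyme charged with ubiquitin, the coiled coil pairs the protein with a partner, and the C-terminal part, most often a PRY-SPRY domain, picks the target. Many members are induced by interferon and act in antiviral defence, either by binding viral parts or by attaching ubiquitin to sensors and adaptors of innate signalling. Others work on chromatin, in muscle or in neurons. The set was defined by symbol and not by enzyme activity: TRIM14, TRIM16, TRIM29, TRIM44 and TRIM66 belong to it although they lack a RING finger.

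Values are log2 probeset levels as deposited. The lowest value was 1.42 in either array and the highest 13.48 in MKN45 and 13.45 in MKN45P, and the 75th percentiles were 2.80 and 2.73. Values near the low end are compressed, so differences there are smaller than those in RNA. Of the 5 epithelial markers, EPCAM (6.39 in MKN45, 7.43 in MKN45P), CDH1 (10.26 and 10.74), KRT18 (5.63 and 5.78) and KRT19 (6.36 and 5.60) were well above that end in both lines, and KRT8, at 3.31 and 3.13, was nearer to it. By the median of their probesets EPCAM and CDH1 were higher in MKN45P, by 0.83 and 0.55, and KRT8, KRT18 and KRT19 were at -0.21, -0.08 and -0.76. Of 19 markers of immune cells, fibroblasts, endothelium, striated muscle and neurons, none had a median level over 3.07 in MKN45 or 2.86 in MKN45P, and the largest difference in either direction was 0.41 in size.

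As a family the TRIM genes differed little between the lines, and the members that did differ lay in both directions. A gene's difference was taken as MKN45P minus MKN45 at each probeset, then the median of these. It was positive in 32 of the 64 genes, against 49.7% of all genes, and negative in 32, with a median of -0.0055 (interquartile range over genes -0.10 to 0.09). Over all 18923 genes the median was -0.0010 (-0.10 to 0.17). With each array centred on its own median the TRIM median was 0.013, so its sign is not settled. The difference was under 0.5 in size in 51 of the 64 genes. In MKN45P, 2 genes, TRIM38 and TRIM21, were at least 2-fold higher (1 in log2 units), against 3.34% of all genes, and 3 genes, TRIM15, TRIM16 and TRIM53, were at least 2-fold lower, against 0.951% of all genes. In percent the TRIM counts are 3.12% and 4.69%. Just under the 2-fold mark were TRIM22 at 0.91 and TRIM25 at 0.77 on the higher side and TRIM65 at -0.83 and TRIM13 at -0.80 on the lower side. By single probesets, 75 of 872 (8.60%) passed 2-fold upward and 30 (3.44%) downward, close to the 8.82% and 4.06% of all probesets.

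**Figure D1:**
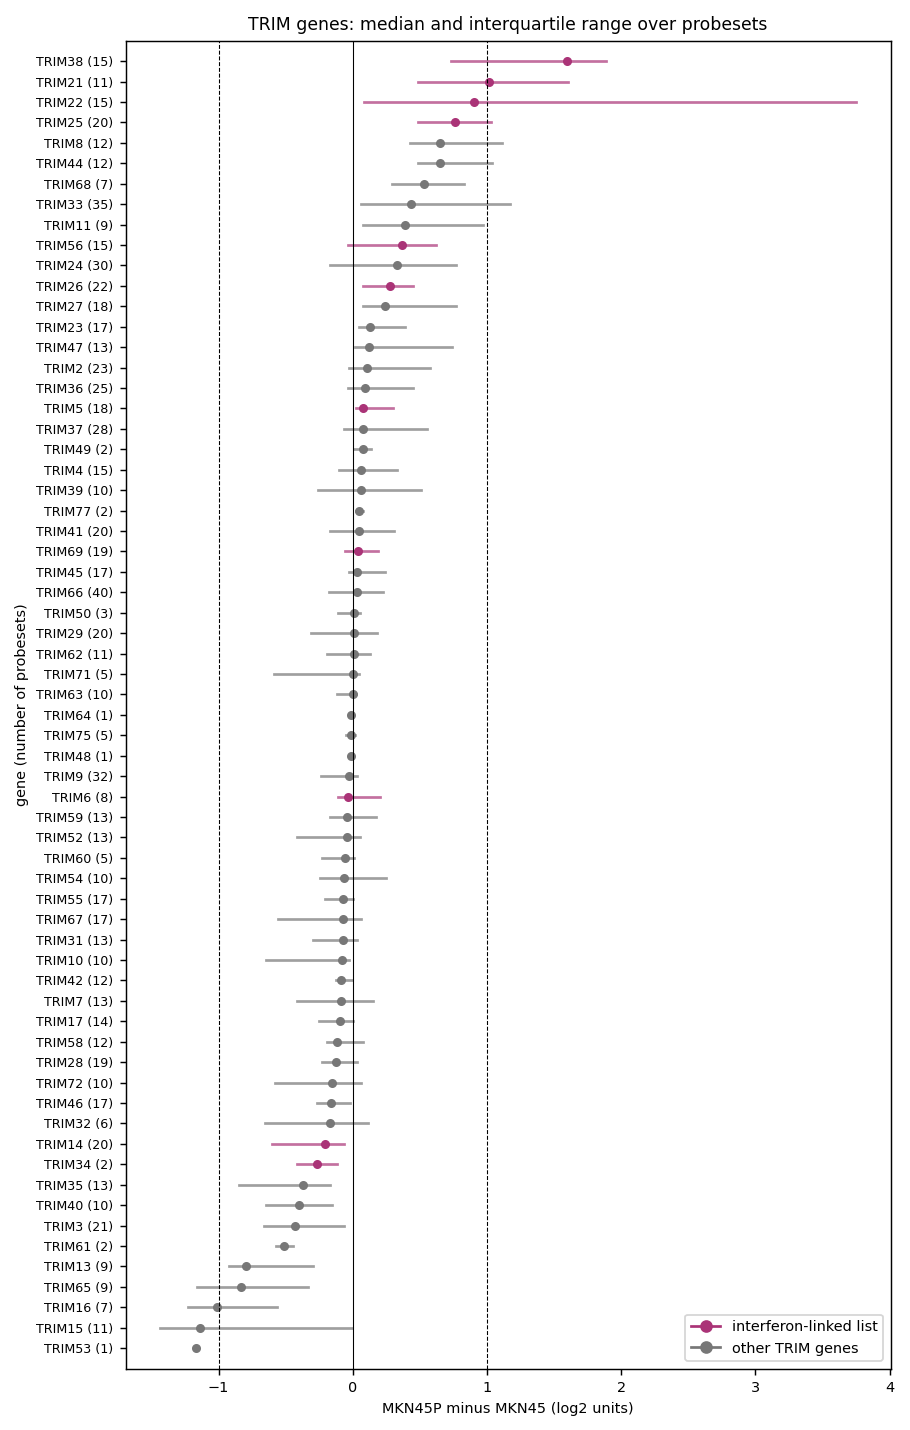
Differences of the 64 TRIM genes, MKN45P minus MKN45, in log2 units. Points are medians over the probesets of a gene (their number in brackets), lines are interquartile ranges over probesets, dashed lines mark 2-fold, and colour marks the interferon-linked list. TRIM38 at 1.60 is highest, TRIM53, with 1 probeset, is lowest at -1.17, and 51 genes lie within 0.5 of 0.

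Both members 2-fold higher, and the next after them, TRIM22 and TRIM25, are known from the interferon response. Of 11 interferon-linked antiviral TRIM genes, 8 lay above 0, against 49.7% of all genes, and 3 below it, with a median of 0.28. This list was chosen with earlier results of these data known, so the split is a description only. The other 53 members had 24 positive and 29 negative differences and a median of -0.02. Of the 165 probesets of the interferon-linked genes 40 (24.2%) passed 2-fold upward and 0 passed it downward. In the other members 35 of 707 probesets (4.95%) were 2-fold higher and 30 (4.24%) 2-fold lower. Over all probesets of the table the shares were 8.82% and 4.06%. At 4-fold or more (2 in log2 units), 18 TRIM probesets (2.06%) were higher, against 1.96% of all probesets. Of the 18, 16 belonged to interferon-linked genes, and the other 2 to TRIM2 and TRIM68.

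TRIM38, an interferon-induced ligase that acts on innate immune signalling, had the largest positive difference of the family by the median over all probesets. Over probesets with signal, described further on, TRIM22 and TRIM69 were above it, and as a mean of probeset differences TRIM22 was, at 2.08 against 1.42. Its median level was 3.47 in MKN45 and 4.83 in MKN45P, a difference of 1.60 (interquartile range 0.73 to 1.89 over 15 probesets). All 15 probesets were higher in MKN45P, 11 of them at least 2-fold. The largest single difference was that of probeset 2899040, at 3.69 in MKN45 and 6.74 in MKN45P. The 4 probesets with the smallest differences, from 0.01 to 0.39, all had levels of 2.35 or less in both lines.

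TRIM21, the cytosolic antibody receptor that marks antibody-coated particles for destruction, was higher at 10 of its 11 probesets. Median levels were 2.38 and 3.29, with a difference of 1.02 (0.49 to 1.60). The probeset with most signal, 3360145, was at 6.50 in MKN45 and 8.53 in MKN45P. The single lower one, 3360161, was at 2.08 and 1.99. Taken as the difference between the lines' median levels, TRIM21 was at 0.91, under 2-fold.

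TRIM25, which attaches ubiquitin chains to the RNA sensor RIG-I, had high values in both lines and a smaller but even difference. Its median levels were 7.95 in MKN45 and 8.71 in MKN45P, and the difference was 0.77 (0.48 to 1.03 over 20 probesets). It was higher at 19 of 20 probesets, 6 of them at least 2-fold. The exception, at 2.64 and 2.42, was the probeset with the lowest level of the gene.

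In TRIM22, TRIM69 and TRIM5 the gene median hid large differences at a few probesets, since most probesets of these genes lay at the low end of the scale in both lines. TRIM22 is an interferon-induced antiviral protein, TRIM69 an interferon-induced protein that blocks some RNA viruses, and TRIM5 the factor that recognises retroviral capsids.

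In TRIM22 the 4 probesets with consecutive numbers 3318464 to 3318467 were at 1.83, 2.03, 1.98 and 1.85 in MKN45. In MKN45P they were at 7.99, 7.71, 8.92 and 7.14. The differences, 6.16, 5.68, 6.94 and 5.30, were the 4 largest among all 872 TRIM probesets, and the MKN45 values were within the low end where a difference is compressed. Another 3 probesets, 3318448, 3318449 and 3318452, were at 2.25, 1.63 and 1.79 in MKN45 and were higher by 1.76, 2.20 and 1.82 in MKN45P. The remaining 8 lay at 3.08 or less in both lines, with differences from -0.15 to 0.91. The median over all 15 was 0.91, with a wide interquartile range of 0.08 to 3.75.

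In TRIM69 4 of 19 probesets carried signal, and all 4 had it in both lines. Probesets 3592057, 3592060, 3592061 and 3592062 were at 4.35, 6.72, 5.93 and 7.61 in MKN45 and at 5.98, 9.34, 8.70 and 9.68 in MKN45P. Their differences were 1.64, 2.62, 2.77 and 2.08, which makes each of them more than 2-fold higher in MKN45P. The other 15 lay between 1.61 and 2.67 in MKN45 and between 1.64 and 2.75 in MKN45P, with a median difference of -0.01.

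TRIM5 had the same form on a smaller scale. Probesets 3360631 and 3360632 were at 5.70 and 4.32 in MKN45 and at 8.32 and 6.29 in MKN45P, differences of 2.62 and 1.97. A further probeset, 3360655, went from 2.42 to 3.50. The 14 probesets without signal had a median difference of 0.06. TRIM5, TRIM6, TRIM22 and TRIM34 are related in sequence and stand beside one another on chromosome 11, so RNA of one may bind probes of another, which makes their values uncertain.

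**Figure D2:**
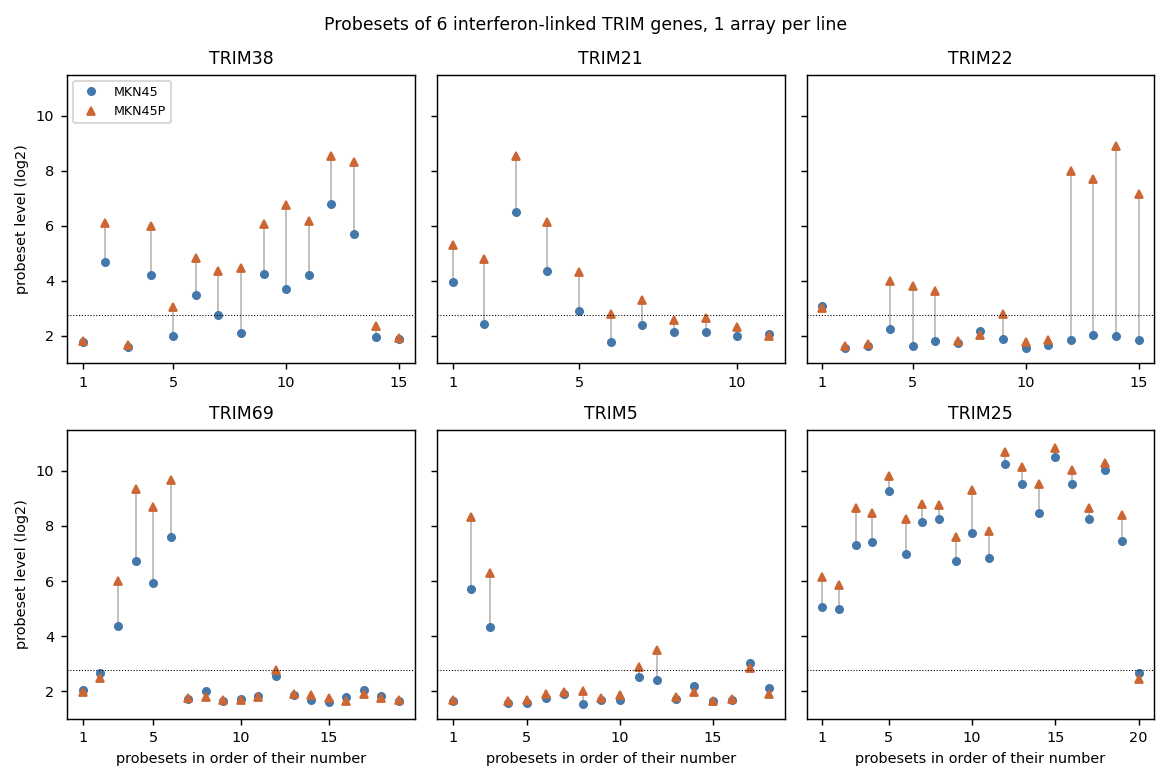
Level of each probeset (log2) in MKN45 (circles) and MKN45P (triangles) for 6 interferon-linked TRIM genes, with probesets in order of their number and the 75th percentile of all probesets dotted. TRIM38 and TRIM25 differ along most probesets, while the excess of TRIM22, TRIM69 and TRIM5 lies at a few, in TRIM22 at 4 consecutive numbers that reach 7.14 to 8.92 in MKN45P.

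The other interferon-linked members differed by less than 2-fold in the median. TRIM56, a ligase of antiviral signalling, was at 0.37 (-0.04 to 0.62). It was higher at 11 of 15 probesets, and over its 10 with signal it was at 0.09. Its largest differences were at its last probesets by number, of which 3016114 went from 2.70 to 4.80 and 3016115 from 3.09 to 5.24. Its probeset with most signal, 3016102, was at 6.21 in MKN45 and 5.87 in MKN45P. TRIM26, a ligase for the factor IRF3, was at 0.28 (0.08 to 0.45) and was higher at 17 of 22 probesets. TRIM14, an adaptor of the mitochondrial antiviral complex, was at -0.21 (-0.60 to -0.07) and was lower at 17 of 20. TRIM6, which builds free ubiquitin chains in interferon signalling, was at -0.03 and TRIM34 at -0.27, with levels of 2.47 or less at each of their 8 and 2 probesets in both lines. A further 18 probesets annotated to both TRIM6 and TRIM34 entered neither gene's value. The 17 of them annotated also to the readthrough TRIM6-TRIM34 had median levels of 1.84 and 1.89 and differences from -0.22 to 0.86. The remaining one, 3318406, was at 2.39 in MKN45 and 1.97 in MKN45P.

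Counting only probesets with signal, those whose mean level over both arrays was at or above the 75th percentile of 2.77, placed more members past 2-fold, on both sides. Of 54 members with such a probeset, 5 (9.26%) passed 2-fold upward, against 9.35% of all genes with one, and 4 (7.41%) downward, against 4.34%. The 5 were TRIM22 (5.49 over 6 probesets), TRIM69 (2.35 over 4), TRIM38 (1.78 over 10), TRIM21 (1.60 over 6) and TRIM5 (1.53 over 4), all of them interferon-linked. None of the 45 members outside that list was 2-fold higher by this measure. The list was chosen with earlier results of these data known, so this split too is a description only. A probeset low in one line can enter this count only through the other: 5 of the 6 of TRIM22 were below 2.77 in MKN45, so their difference had to be large. Probesets 3360144 and 3360154 of TRIM21, 2899035 and 2899036 of TRIM38 and 3360655 of TRIM5 were also below 2.77 in MKN45 and entered through MKN45P. On the lower side TRIM15, TRIM16, TRIM65 and TRIM53 likewise held probesets below 2.77 in MKN45P. The 4 of TRIM69 were above 2.77 in both lines.

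**Figure D3:**
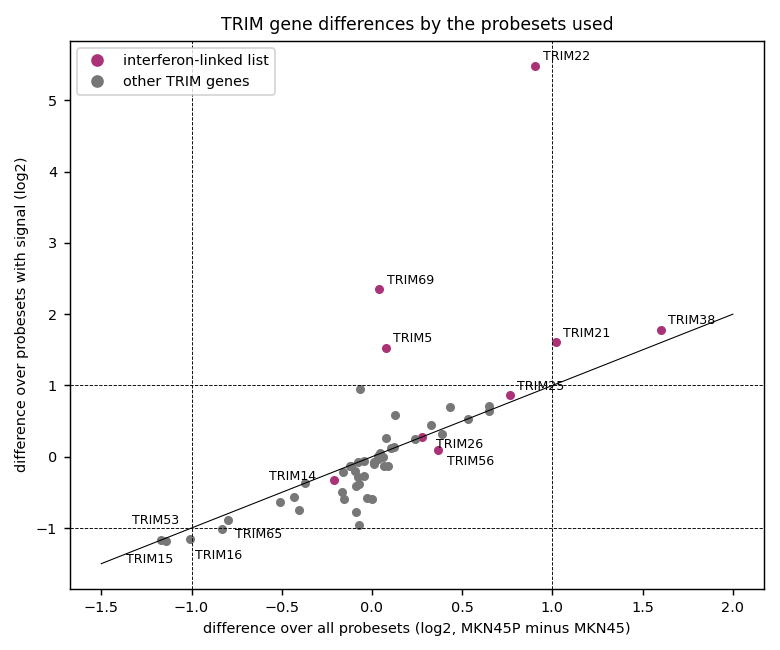
Difference of each TRIM gene over probesets with signal (vertical) against that over all its probesets (horizontal), both in log2 units, for the 54 genes with such a probeset. The solid line marks equal values and dashed lines mark 2-fold, and TRIM22 (5.49 against 0.91), TRIM69 (2.35 against 0.04) and TRIM5 (1.53 against 0.08) stand far above the line.

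The promoters of the TRIM members were searched on either strand for the core of the interferon-stimulated response element. This core is GAAA, then 2 bases of any kind, then GAAA. The window was 250 bases before to 50 after the gene's start in RefSeq (GRCh38.p14), 300 in all, and matches could overlap. Promoters were at hand for 50 of the 64 members, and 9 of them (18.0%) held a match, against 996 of 27305 promoters of all genes (3.65%). Of 10 interferon-linked promoters 6 held one, those of TRIM5, TRIM14, TRIM21, TRIM26, TRIM34 and TRIM69. Among 40 other members 3 did, TRIM2, TRIM16 and TRIM44. The promoter of TRIM22 was not analysed here, and those of TRIM6, TRIM25, TRIM38 and TRIM56 had no match in this window. The stretches around the matches are shown for the 6 interferon-linked genes and for TRIM16, the one member at least 2-fold lower in MKN45P that had one. Each reads 5′ to 3′ on the gene's strand, with the matching bases in capitals. A match on the other strand reads TTTC, 2 bases, TTTC. In TRIM21 and TRIM26 the capitals cover 2 overlapping matches.
TRIM5: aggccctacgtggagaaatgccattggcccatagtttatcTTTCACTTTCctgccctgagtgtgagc
TRIM69: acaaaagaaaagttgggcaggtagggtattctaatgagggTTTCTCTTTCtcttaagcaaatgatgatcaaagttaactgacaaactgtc
TRIM21: gagcgGAAACTGAAAGTGAAAtaggg
TRIM26: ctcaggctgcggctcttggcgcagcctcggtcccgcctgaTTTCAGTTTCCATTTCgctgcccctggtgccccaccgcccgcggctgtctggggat
TRIM14: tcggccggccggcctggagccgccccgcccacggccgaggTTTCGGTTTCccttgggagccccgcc
TRIM34: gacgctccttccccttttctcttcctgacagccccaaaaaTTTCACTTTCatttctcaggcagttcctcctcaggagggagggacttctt
TRIM16: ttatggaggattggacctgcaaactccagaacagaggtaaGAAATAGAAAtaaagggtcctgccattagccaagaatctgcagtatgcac
They come from chr11:5685075-5685141 (minus strand) for TRIM5, chr15:44736426-44736515 (plus) for TRIM69, chr11:4393665-4393690 (minus) for TRIM21 and chr6:30213545-30213640 (minus) for TRIM26. The others are chr9:98119223-98119288 (minus) for TRIM14, chr11:5624871-5624960 (plus) for TRIM34 and chr17:15682982-15683071 (minus) for TRIM16. The match of TRIM5 begins 27 bases before the start, that of TRIM69 at 62, that of TRIM14 at 26 and that of TRIM34 at 90, while those of TRIM21 begin 18 and 24 bases after it. Genes with a match lay on both sides in the arrays. Over all probesets TRIM21 was at 1.02, TRIM44 at 0.65, TRIM26 at 0.28, TRIM2 at 0.11, TRIM5 at 0.08 and TRIM69 at 0.04. Below 0 were TRIM14 at -0.21, TRIM34 at -0.27 and TRIM16 at -1.01. Over probesets with signal TRIM69 was at 2.35, TRIM21 at 1.60, TRIM5 at 1.53, TRIM14 at -0.32 and TRIM16 at -1.16. TRIM38, highest by the median over all probesets, had none in the window. A match describes letters and is not a measured binding site.

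Members lower in MKN45P came from several branches of the family. TRIM15, a focal adhesion protein encoded beside the major histocompatibility complex genes, was lower by the most among members with more than 1 probeset, by the median of probeset differences. Its levels had medians of 3.74 in MKN45 and 2.89 in MKN45P, with a difference of -1.14 (-1.43 to -0.01 over 11 probesets). Probeset 2901427 was at 8.41 in MKN45 and 4.17 in MKN45P, a difference of -4.24 and the largest of that sign in the family. Probeset 2901425 was at 4.65 and 2.57. By contrast the last 3 probesets by number, 2901432 to 2901434, differed by 0.02, 0.37 and 0.01. As the difference between the lines' median levels TRIM15 was at -0.84, under 2-fold.

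TRIM16, an oestrogen-responsive B-box protein, was lower at all 7 of its probesets. Its median levels were 3.88 and 2.87, a difference of -1.01 (-1.23 to -0.57). The probesets with most signal, 3746848 and 3746858, were at 9.65 and 8.71 in MKN45 and at 8.49 and 7.41 in MKN45P. The value sits at the 2-fold mark: it was -0.99 with each array centred, -0.97 with quantile normalization, -0.98 with loess and -0.89 as a mean. TRIM16 has a near-identical relative, TRIM16L, and is uncertain for that reason.

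TRIM65, a ligase for the RNA sensor MDA5, was lower at 8 of 9 probesets, with a difference of -0.83 (-1.16 to -0.34). Its median levels were 5.30 in MKN45 and 3.56 in MKN45P, which are 1.74 apart, so that the 2 ways of summarising it fall on either side of 2-fold. Probeset 3771095 went from 5.58 to 3.08. Over its 7 probesets with signal it was at -1.01. Its chromosomal neighbour TRIM47 was at 0.12.

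TRIM13, a ligase anchored in the endoplasmic reticulum membrane, was at -0.80 (-0.92 to -0.30) and lower at 8 of 9 probesets. The last of them by number, 3489664 and 3489665, had the largest differences, from 3.88 to 2.02 and from 5.70 to 2.28. Its median levels were 3.88 and 2.53, and the difference between them, -1.35, was past 2-fold. TRIM53 was read by a single probeset, at 3.65 in MKN45 and 2.47 in MKN45P. It is now named TRIM53AP, a transcribed pseudogene with close copies, and its value is uncertain.

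At 4-fold or more 6 TRIM probesets were lower (0.688%, against 0.558% of all), 2 of them in TRIM15 and the others in TRIM65, TRIM13, TRIM27 and TRIM41. In TRIM27 and TRIM41 a single probeset was over 4-fold lower in a gene with a small positive difference. TRIM27, a ligase first known as a fusion partner of the kinase RET, had median levels of 6.31 and 6.65, a difference of 0.24 and 14 of 18 probesets higher. Yet of the 4 lower probesets 2 were past 2-fold. Of these, 2947601 was at 7.90 in MKN45 and 6.37 in MKN45P, and 2947587 was at 6.38 in MKN45 and 3.01 in MKN45P, between neighbours by number at 8.82 and 8.98 and at 1.88 and 2.11. In TRIM41 probeset 2845053 went from 5.33 to 2.86 while the gene's difference was 0.05, with 12 of 20 probesets higher. In TRIM2 probeset 2748100 went the other way, from 2.58 to 5.00, in a gene at 0.11. In all, 13 of 430 TRIM probesets with signal departed from their gene by 2 or more in log2 units, in 8 genes, 9 upward and 4 downward. Of the 9 upward, 8 were those of TRIM22, TRIM69 and TRIM5 described above, and those of TRIM22 had signal only through MKN45P. The same count was not made over all genes, so whether 13 of 430 is unusual on these arrays cannot be said.

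**Figure D4:**
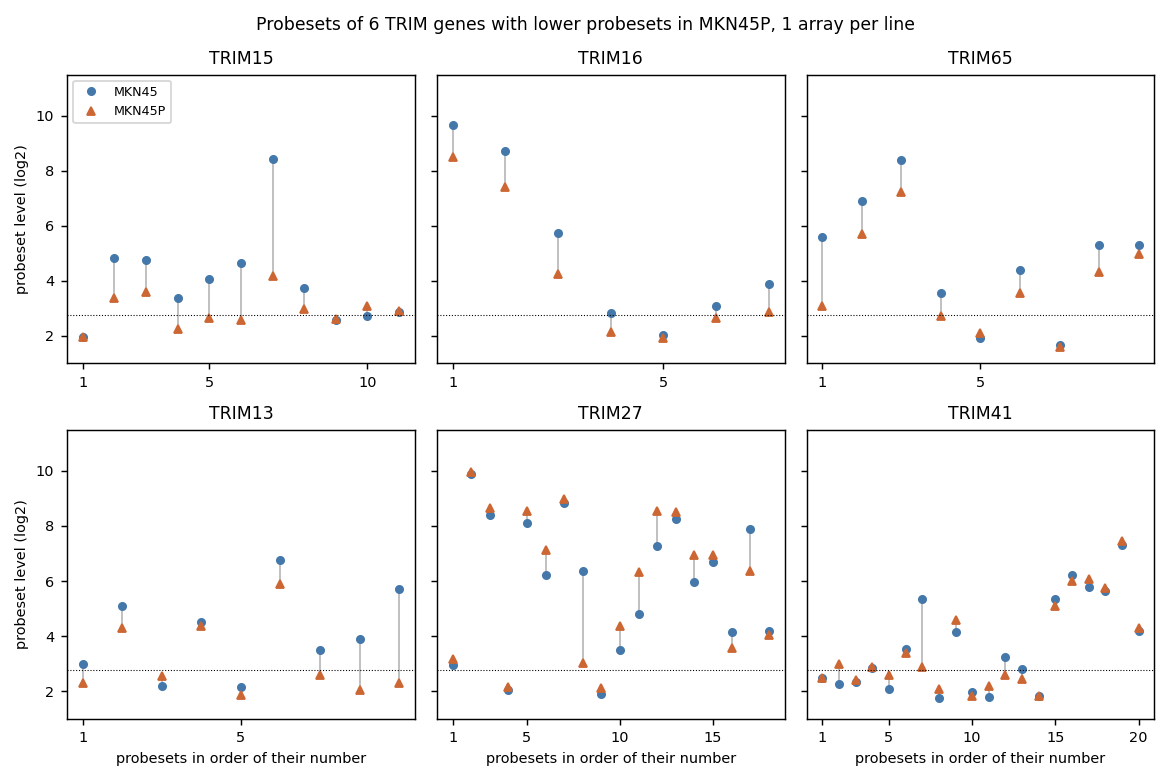
Level of each probeset (log2) in MKN45 (circles) and MKN45P (triangles) for TRIM15, TRIM16, TRIM65, TRIM13, TRIM27 and TRIM41, in order of probeset number, with the 75th percentile of all probesets dotted. TRIM16 is lower at all 7 probesets, whereas TRIM27 and TRIM41 each have 1 probeset over 4-fold lower, 2947587 and 2845053.

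The transcription intermediary factors carry a PHD finger and a bromodomain and act on chromatin. By the median of probeset differences they differed by less than 2-fold, as did every member of the 3 groups that follow. TRIM28, the corepressor of KRAB zinc finger proteins, was at a median of 9.94 in MKN45 and 9.71 in MKN45P, with a difference of -0.12 (-0.23 to 0.03 over 19 probesets). TRIM33, which acts on SMAD signalling, was at 0.43 (0.06 to 1.17) and was higher at 28 of 35 probesets, with levels of 4.08 and 4.77. TRIM24, a reader of histone marks, was at 0.33 (-0.17 to 0.77), and TRIM66 at 0.03. The group median was 0.18.

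The muscle members were near the low end in both lines. The ligases TRIM63, TRIM55 and TRIM54 of the sarcomere were at 0.002, -0.07 and -0.07, and TRIM72, a membrane repair protein, was at -0.16. Their median levels were between 1.83 and 2.48. Of the 17 probesets of TRIM55, 2 carried signal, with median levels of 5.79 and 5.40.

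Of the 7 members with NHL repeats or known from neurons, 5 had a negative and 2 a positive difference (median -0.07), and over probesets with signal the median was -0.57. TRIM2, a ligase for neurofilament light chain, had median levels of 6.91 and 6.76, which go against the sign of its difference of 0.11. TRIM3 was at -0.43 (-0.66 to -0.06) and lower at 17 of 21 probesets. TRIM32, the gene of a limb-girdle muscular dystrophy, was at -0.17, and TRIM46, which bundles microtubules in axons, at -0.16. TRIM67 was at -0.07 over all 17 probesets but at -0.96 over its 6 with signal, where median levels were 5.08 and 3.53. TRIM9 was at -0.03 and TRIM71, a target of the let-7 microRNA, at 0.002. Signs of TRIM2, TRIM9 and TRIM71 changed under some other settings.

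Among members with a membrane anchor or an unusual C-terminal part, the centrosomal and peroxisomal ligase TRIM37 was at 0.08, TRIM23, which carries an ARF GTPase domain, at 0.13 and TRIM59 at -0.04, beside TRIM13. Among the 8 members in or near the major histocompatibility complex 4 were positive and 4 negative (median -0.01), from TRIM15 to TRIM38. TRIM31, TRIM40, TRIM10, TRIM15, TRIM26 and TRIM39 follow one another on chromosome 6, and their differences were -0.08, -0.40, -0.08, -1.14, 0.28 and 0.06. A further 6 probesets annotated to both TRIM39 and TRIM39R were left out of these values. Their median difference was 0.25, and 2901520 among them went from 3.09 in MKN45 to 5.78 in MKN45P. Another 4, annotated to RPP21 and TRIM39R, had a median of 0.98. TRIM40, a gut-expressed member, was lower at all 10 of its probesets, with median levels of 2.66 and 2.08. The 8 members in region 11p15 of chromosome 11 had a median of 0.05 and ran from TRIM3 at -0.43 to TRIM21 at 1.02. Among them TRIM68, a coactivator of the androgen receptor, was at 0.53 and higher at all 7 probesets.

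Of the 27 members in none of these groups none was 2-fold higher and 2 were 2-fold lower, TRIM16 and TRIM53 (median -0.01). TRIM8, a regulator of STAT and NF-kappaB signalling, was at 0.65 (0.42 to 1.11), with median levels of 6.35 and 6.78. TRIM44, which carries a zinc finger of ubiquitin hydrolases, was also at 0.65 (0.49 to 1.04) and higher at 11 of 12 probesets. The difference between its median levels, 4.35 and 5.43, was 1.09, past 2-fold. TRIM11, with a difference of 0.39, adjoins TRIM17 at -0.09 on chromosome 1. TRIM35 was at -0.37 and TRIM61, with 2 probesets, at -0.51. The other 19, TRIM17, TRIM41 and TRIM47 among them, lay between -0.12 and 0.12.

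Genes that TRIM proteins work with were read beside the family, and those of antiviral signalling held most of the higher ones. Of 9 E2 enzymes, 1 was 2-fold higher, against 3.34% of all genes, and 0 were 2-fold lower (median 0.09). That gene was UBE2L6, the E2 of the ubiquitin-like protein ISG15, at 1.04 (0.23 to 4.80 over 12 probesets) and with median levels of 3.59 and 6.67. UBE2E2 was at -0.68, UBE2D4 at 0.54, UBE2E1 at 0.46, UBE2V1 at 0.14 and UBE2N at 0.02. The list of antiviral signalling genes was also chosen with earlier results of these data known, so its counts are a description only. Of its 17 sensors, adaptors, kinases and factors 15 lay above 0, against 49.7% of all genes. Of the 17, 5 were 2-fold or more higher, against 3.34% of all genes, and 0 were 2-fold lower (median 0.67). The 5 were STAT2 (3.06), IRF9 (2.30), IRF1 (2.15), IRF7 (1.03) and the kinase gene TBK1 (1.00). The RNA sensor gene DDX58, target of TRIM25, was at 0.82, MAP3K7IP2, now named TAB2, at 0.82, MAP3K7 at 0.70 and IFIH1, target of TRIM65, at 0.67. The 2 below 0 were the kinase gene IKBKE at -0.19 and IKBKG, a regulatory subunit of NF-kappaB signalling, at -0.04. Of the p53 partners MDM4 was at 0.80, CDKN1A at 0.20 and MDM2 at -0.02. Over probesets with signal 7 of the 17 antiviral genes were 2-fold higher, against 9.35% of all genes with such a probeset, and 0 were 2-fold lower. Beyond the 5 named, DDX58 at 2.49 and IFIH1 at 1.70 passed. By that measure UBE2L6 was at 2.85, UBE2E2 at -1.09 and MDM4 at 1.36. A probeset low in one line entered there only through the other.

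**Figure D5:**
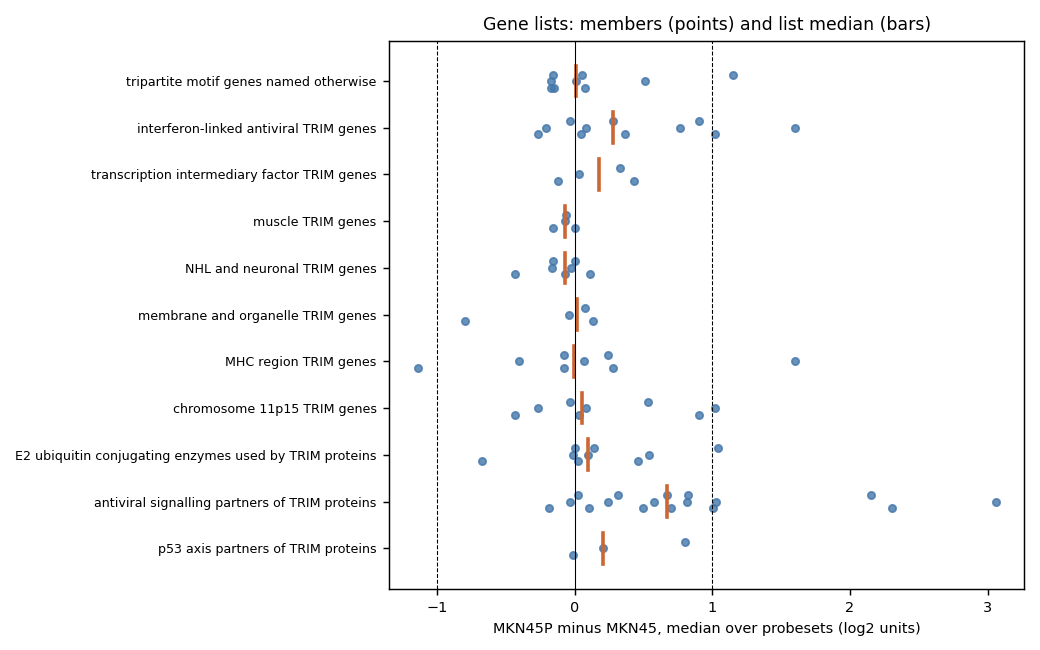
Differences of the members of 11 gene lists (points, MKN45P minus MKN45, log2 units, median over probesets) with the list medians (bars) and 2-fold marked by dashed lines. The antiviral signalling partners have the highest median, 0.67, followed by the interferon-linked TRIM genes at 0.28, and a gene may be in more than 1 list.

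Tripartite motif genes that carry other names were read as well. Of 9, 1 was 2-fold higher, against 3.34% of all genes, and 0 were 2-fold lower, against 0.951%. The higher one was MID2, a microtubule-binding ligase, at 1.15 (0.26 to 1.42 over 15 probesets) with median levels of 2.85 and 3.96. PML, the organiser of nuclear bodies, which interferon induces, was at 0.51 and higher at 22 of 28 probesets. MID1, the relative of MID2, was at -0.16, MEFV at -0.18, RNF207 at -0.17 and TRIML2 at -0.15.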

How the data were processed

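Total RNA of 1 culture sample of each line was read on an Affymetrix exon array after reduction of ribosomal RNA, per the labels' protocols. The values, deposited on a log2 scale, are 1 for each of 877986 probesets, and the log base was read from the values. The submitters' processing notes name Partek and hg18, while background correction, probe summary and normalization are not given in the sources. Values were used as deposited by the authors. Symbols are those of GEO's platform annotation, where 3137 probesets with several symbols and 587978 unnamed ones were left out. Of the 64 members 63 had a current RefSeq symbol. No level filter was applied to members: 48 had at least 4 probesets and a median level of 1.92 or more, the median of all probesets, 8 had fewer than 4 probesets and 8 were below that level. The precision is limited by 1 array per line, so no test was made. Members and gene lists were chosen with earlier results of these data known. Genes named were those past 2-fold by either summary or with a probeset past 4-fold, all interferon-linked members, the largest and smallest of each other TRIM list, the members past 2-fold and up to 4 others with the largest differences of lists of other genes, and the 5 members highest in level (TRIM28, TRIM25, TRIM2, TRIM8 and TRIM27), and others are named to account for all members. Probeset positions along genes were not used here, nor were protein sequences. Alternatives were other scalings, other gene summaries, a level filter and filters on probesets, 8 in all. Python 3.11.15, numpy 2.4.6, pandas 2.3.3 and statsmodels 0.14.6 were used, and the gene summary was tested on simulated data.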

Additional observations from a re-analysis of the deposited data

How the results depend on the processing

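Counts of TRIM genes past 2-fold depended on the probesets used. With probesets at or above the 75th percentile in mean level, or in at least 1 array, 5 members were 2-fold higher in place of 2. Under the other 6 alternatives 2 or 3 members were. Between 2 and 4 members were 2-fold lower under all 8, and the median over members ran from -0.09 to 0.01. No member past 2-fold changed sign under any alternative that could be computed for it. TRIM38 was 2-fold higher under all 8, from 1.36 to 1.78. TRIM21 ran from 0.91 to 1.60, TRIM22 from 0.91 to 5.49, TRIM15 from -1.19 to -0.84 and TRIM16 from -1.16 to -0.89. Of the smaller differences, 19 members took both signs, TRIM54, TRIM62 and TRIM71 among them. No paired analysis was possible because each line has 1 array, and for the same reason no replicate could be left out. The protein comparison planned for the chromosome 11 members was not run. Signal near the low end limits what can be read: 394 of the 872 TRIM probesets were below the 75th percentile of level in both lines.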
